A study of Mus musculus with 28 samples.

Results

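The amygdala transcriptome of mice that drank only water was described here from 10 of the 28 RNA-seq samples of the series, chosen as every sample whose title reads Water drinking. All 10 came from adult female C57BL6/J mice with no access to alcohol, which received only tubes of water, on the schedule of fluid access of the 2 groups of the study that drank ethanol. They carried no transgene. As the paper states, the mice were housed individually and anesthetized with isoflurane before decapitation, and all of them were in either proestrus or estrus. The first batch held 4 of them (labelled 40, 41, 42 and 43) and the second held 6 (labelled 1 to 6), each batch being a separate cohort of animals. Tissue was taken as bilateral micropunches of 1 mm aimed at the whole amygdala, basolateral and central nuclei together, so every value is a mean over all cells of a punch, and what neighbouring tissue a punch included is not recorded. The RNA was enriched for mRNA and depleted of rRNA, and paired-end reads were counted by gene.

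The amygdala assigns emotional value to sensory input. Its basolateral nuclei are cortex-like and hold mostly glutamatergic projection neurons, whereas the central nucleus is striatum-like and holds mostly GABAergic neurons, many of which release a neuropeptide in addition to GABA. Neuropeptides are made as larger precursors, cut by proprotein convertases in dense-core granules, and act through G protein-coupled receptors on neighbouring and distant cells.

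Total counts ranged from 20004380 to 22474159 (median 20184479.5), and between 15950 and 16613 genes per mouse had at least 10 counts. Levels of different genes are compared below as a length-scaled level, which is the count divided by the length of all annotated exons and scaled so that the 49477 genes listed in both batches' tables have the same sum in each mouse, on the scale of TPM. Levels of the same gene between mice are given either on that scale or as CPM, the count as a share of the mouse's scaled library. Of 14345 protein-coding genes past a filter (mean count of 10 or more over the mice), 8695 had a mean level of at least 10 and 1267 of at least 100, and the median level was 15.1. Another 1596 genes are listed only in the second batch's table, and for these n is 6. Since the samples are bulk tissue, fewer cells of a type and less RNA per cell cannot be told apart in any value.

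The markers of the labelled tissue were present in every mouse. Slc17a7, the vesicular glutamate transporter of cortical-type neurons, was between 996 and 1538 CPM, and Gad2, a GABA-synthesizing enzyme, was between 267 and 539 CPM. Prkcd, a kinase that marks a class of central amygdala neurons, was between 29.2 and 46.9 CPM. Hypothalamic peptides and pituitary hormones were near 0, with 6 members in each list and the highest value of any member at 1.46 CPM. Oxt, the oxytocin precursor, reached 0.0886 CPM and Pomc, the precursor of melanocortins, 1.18 CPM, while Tshb, a subunit of thyrotropin, lay between 0.927 and 1.46 CPM in every mouse. Lists of other tissue held both higher and similarly low members. Slc17a6, a vesicular glutamate transporter of the thalamus and other subcortical regions, was between 26.7 and 50.3 CPM, Hba-a2, a hemoglobin gene, between 22.5 and 58.7 CPM, and Dcn, a matrix protein of meningeal fibroblasts, between 12.7 and 48.8 CPM. In the same 3 lists Gbx2 (thalamus) reached 1.03 CPM, Slc4a1 (blood) 0.133 CPM and Aldh1a2 (meningeal fibroblasts) 1.62 CPM. The markers of the choroid plexus, the epithelium that makes cerebrospinal fluid, and of the striatum were high in some mice and low in others and are described below.

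Transcripts of the mitochondrial genome were the most abundant. Genes of the mitochondrial chromosome took from 8.36% to 11.04% of the counts of a mouse, and 15 of the 20 highest mean levels belonged to them. mt-Co1, which encodes the catalytic subunit of cytochrome c oxidase, had a level of 47155 ± 1877 (SD, n = 10), and mt-Atp6, a subunit of ATP synthase, a level of 46524 ± 1537 (SD, n = 10). Neither passed the test between the batches (edgeR's quasi-likelihood test, adjusted p = 0.188 and 0.853).

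For mt-Co2, a further oxidase subunit, the gene and a copy of it in the nuclear genome have to be read together. In the first batch mt-Co2 was at 45238 ± 1265 (SD, n = 4) and its copy Gm28661 on chromosome 1 at 22.5 ± 8.61, whereas in the second mt-Co2 was at 5488 ± 870 (SD, n = 6) and Gm28661 at 40275 ± 994. Their sum was 45260 ± 1269 (SD, n = 4) against 45763 ± 635 (SD, n = 6). mt-Co3 moved likewise, with 0.0331% of the counts of the pair on the copy Gm28437 in the first batch against 50.02% in the second, and mt-Nd3 with 0.125% on Gm28438 against 42.8%. The mitochondrial genes together with the 5 copies took from 10.6% to 11.4% of the counts of first-batch mice and from 10.1% to 11.1% of those of the second batch.

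The sequences show how little separates these genes. Below are bases 1 to 60 of the annotated mt-Co2 transcript and the matching stretch of Gm28661 (GRCm38, chr1:24614885-24615565), whose 681 bases match mt-Co2 without a difference, and then bases 1054 to 1113 of mt-Co1 with the matching stretch of Gm29216 (GRCm38, chr1:24615706-24616197), where capitals mark the only 6 letters of its 492 that differ from the mitochondrial gene. All are from GENCODE release M21, read 5′ to 3′ along the transcript.
mt-Co2: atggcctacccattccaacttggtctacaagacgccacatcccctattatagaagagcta
Gm28661: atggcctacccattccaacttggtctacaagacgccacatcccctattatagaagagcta
mt-Co1: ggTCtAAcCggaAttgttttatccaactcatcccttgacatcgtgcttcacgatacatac
Gm29216: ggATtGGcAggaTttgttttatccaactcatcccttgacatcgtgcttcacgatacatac

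The mt-Co2 stretch is the same in both places, so that its reads match either, and the levels of mt-Co2, mt-Co3 and mt-Nd3 and of their copies are uncertain one by one. Gm29216, of which the annotated copy holds a part of mt-Co1, took 12.7% of the counts of the pair in the first batch against 15.7% in the second. The copy of mt-Nd4, Gm28439, was low in both batches, at 135 ± 107 (SD, n = 4) and 11.7 ± 4.19 (SD, n = 6).

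Apart from mitochondrial genes and these copies, Bc1, Ttr and Eef1a1 had the highest mean levels. Bc1, a small noncoding RNA that represses translation at synapses, was at 3191, 3463, 1883 and 1998 in mice 40 to 43 and between 3025 and 5595 in the second batch, and it was higher in the second (log2 change 0.83, SE 0.20, adjusted p = 0.0142), although the batches overlapped. Ttr, the thyroid hormone carrier secreted by the choroid plexus, had the most unequal level of the abundant genes, from 32.9 to 9396. The other nuclear genes at the top of the order, chosen after the values were seen, were even between mice. Eef1a1, the translation elongation factor, was between 2472 and 2745. Cpe, a carboxypeptidase that trims neuropeptides, was between 2312 and 2653, above the calmodulin gene Calm2 (from 1933 to 2193) and the synaptic calmodulin-binding gene Nrgn (from 1736 to 2172).

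Of 62 neuropeptide precursors, 17 had a mean level of at least 10 and 34 of at least 1. The filter of a mean of 10 counts left 29, a further 31 fell under it, and Gal and Grp are listed in the second batch only. Somatostatin and enkephalin led, followed by cholecystokinin and neuropeptide Y, and a gap separated these 4 from prodynorphin and all others.

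**Figure D1:**
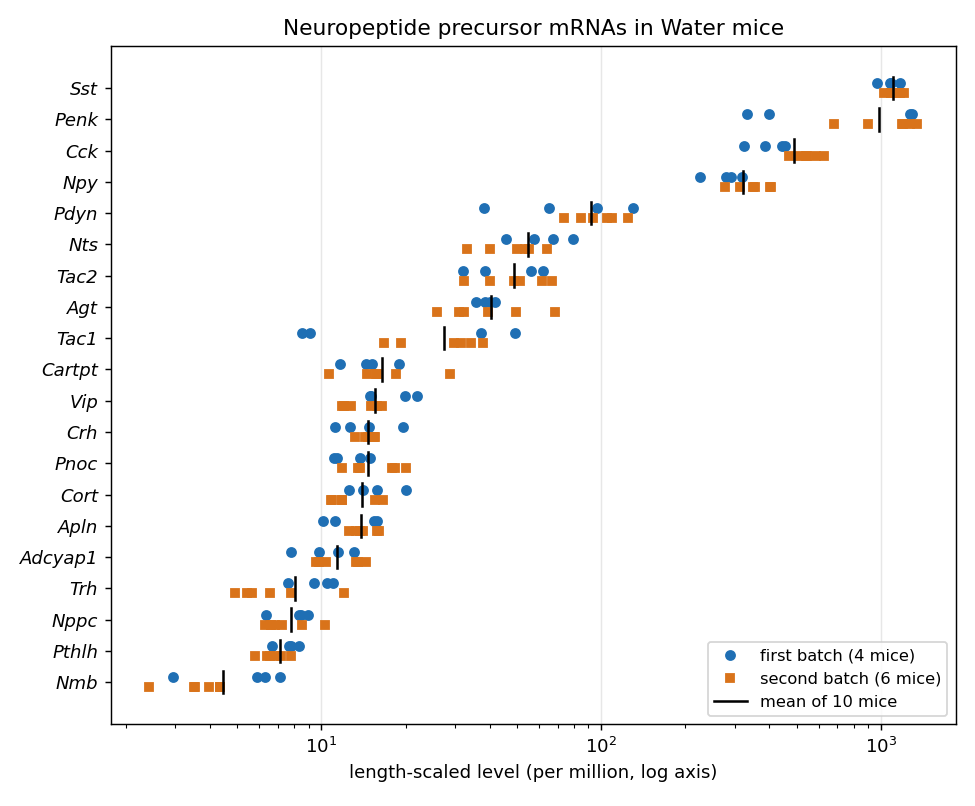
Length-scaled levels (log axis) of the 20 neuropeptide precursors with the highest mean that both tables list, with 1 point per mouse (circles, 4 mice of the first batch; squares, 6 mice of the second) and a bar at the mean of the 10 mice. Sst mice cluster around 1102, whereas Penk and Tac1 each split into a high and a low pair within the first batch.

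Sst, the precursor of somatostatin and a marker of a class of GABAergic neurons, had levels of 966, 1076, 1167 and 1086 in mice 40, 41, 42 and 43, and between 1028 and 1213 (median 1111) in the second batch. It was the steadiest of the abundant precursors, with a coefficient of variation of 6.64% over the 10 mice. Penk, the precursor of the enkephalins, had levels of 1276, 1288, 399 and 332 in mice 40 to 43, and between 679 and 1349 (median 1193) in the second batch. Mice 42 and 43 were thus below all other mice, and Penk was above Sst in mice 40 and 41 and in 4 of the 6 mice of the second batch. The difference between the 2 genes did not pass the test (mean log2 difference of Sst over Penk 0.30, SD 0.78, n = 10, exact sign-flip permutation test, adjusted p = 0.464), and their mean levels were 1102 ± 73.1 and 988 ± 387 (SD, n = 10).

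Cck, the cholecystokinin precursor, had levels of 326, 384, 445 and 454 in the first batch, and between 469 and 628 (median 542) in the second. These did not overlap, and Cck was the only precursor of the 29 tested that differed between the batches (log2 change 0.47, SE 0.11, edgeR's quasi-likelihood test, adjusted p = 0.0099). As the background of that comparison, 17.3% of all 16274 genes tested differed, 9.05% higher and 8.29% lower in the second batch, a larger share than among the precursors. Npy, the neuropeptide Y precursor, was at 292, 319, 227 and 279 in the first batch, and between 278 and 404 (median 352) in the second, which overlapped (adjusted p = 0.0557).

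The order of the levels was tested between neighbours within mice, over 19 pairs of the 20 highest precursors in both tables, of which 6 differed. Penk was above Cck in 8 of 10 mice (mean log2 difference 0.90, SD 0.78, exact sign-flip permutation test, adjusted p = 0.0371), but with the length of the longest annotated transcript the difference was 0.36 (exact adjusted p = 0.304). Cck was above Npy in 10 of 10 mice (0.60, SD 0.26, exact adjusted p = 0.0124), and Npy above Pdyn, the dynorphin precursor, in 10 of 10 (1.85, SD 0.43, exact adjusted p = 0.0124), the widest step of the order. Pdyn was above Nts, the neurotensin precursor, in 8 of 10 mice (0.72, SD 0.56, exact adjusted p = 0.0297). Further down, Adcyap1, which encodes PACAP, was above Trh, the precursor of thyrotropin-releasing hormone, in 9 of 10 mice (0.52, SD 0.42, exact adjusted p = 0.0278), and Pthlh, a parathyroid hormone-like peptide, was above Nmb, the neuromedin B precursor, in 10 of 10 (0.73, SD 0.49, exact adjusted p = 0.0124). The other 13 pairs did not pass the test. Without any single one of mouse 41 of the first batch and mice 1, 2, 3, 4 and 6 of the second, 3 of the 19 pairs differed, Penk over Cck, Pdyn over Nts and Adcyap1 over Trh being lost. Without mouse 40 the steps from Penk to Cck and from Pdyn to Nts were lost (exact sign-flip permutation test, adjusted p = 0.0742 and 0.0594).

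Below this step, Pdyn was at 97.0, 130, 65.3 and 38.3 in mice 40 to 43 and between 73.8 and 125 (median 99.2) in the second batch. The peptides that mark central amygdala neurons followed. Nts was between 33.1 and 79.1, Tac2, the neurokinin B precursor, between 32.2 and 66.7, and Crh, the corticotropin-releasing hormone precursor, between 11.2 and 19.6. Crh was at 14.9, 19.6, 12.7 and 11.2 in the first batch and within 13.2 and 15.5 in the second, so that the spread of the first batch enclosed the second. Tac1, the substance P precursor, was at 49.1, 37.2, 8.55 and 9.14 in mice 40 to 43, the same split between pairs of mice as for Penk, and between 16.8 and 37.7 (median 30.7) in the second batch.

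Several precursors at moderate or low level peaked in mouse 5 of the second batch. Cartpt, which encodes the CART peptides, was at 28.7 there and between 10.6 and 18.9 in the other 9 mice. Agt, the angiotensinogen precursor made in the brain mainly by astrocytes, was at 68.2 there and at most 49.8 elsewhere. Ucn3, which encodes urocortin 3, a ligand of the second corticotropin-releasing hormone receptor, had 123 counts in mouse 5 and between 0 and 24 in the others. Gal, the galanin precursor, was at 9.95 in mouse 5 and at 8.54 in mouse 6, and between 1.19 and 4.79 in the other 4 mice of that batch.

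The genes of the list of granins and peptide processing, which also holds Peg3, were more abundant and more even than the precursors. Of 17, 16 had a level of at least 10, and the median coefficient of variation over the mice was 12.8% against 24.7% for the precursors and 11.4% for all genes tested. After Cpe came Pcsk1n, an inhibitor of the convertase Pcsk1, with levels of 585, 599, 598 and 572 in the first batch and between 961 and 1091 (median 1010) in the second. These did not overlap, and Pcsk1n was the processing gene with the largest change between the batches (log2 change 0.82, SE 0.05, adjusted p = 1.45e-07). Vgf, a granule protein and itself a peptide precursor, was at 307, 292, 318 and 290 in the first batch and between 359 and 407 in the second (log2 change 0.36, SE 0.05, adjusted p = 0.000311). Altogether 5 of the 16 tested were higher in the second batch (Pcsk1n, Vgf, Chga, Chgb and Pcsk6) and 1 was lower (Scg5), a larger share than the 17.3% of all genes. The granins Scg2 and Chgb, which help to form dense-core granules, had mean levels of 420 ± 88.7 and 361 ± 49.04 (SD, n = 10), and the convertases Pcsk2 and Pcsk1 158 ± 13.8 and 42.2 ± 3.96.

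A cAMP response element is the DNA motif through which CREB acts on many peptide genes. Its full form, TGACGTCA, reads the same on both strands and was searched in windows of 300 bases around transcription starts (250 bases before and 50 after, from RefSeq, GRCm38.p6). Of 20449 genes with a window, 2.24% held it. It was in 3 of the 51 precursor windows, those of Sst, Cartpt and Ucn. In the list of granins and peptide processing it was in 4 of the 14 windows, those of Scg2, Chgb, Pcsk1 and Peg3, the last not itself a peptide-processing gene. Of the 58 windows of neuropeptide receptors 1 held it, that of Sstr2. No window of the other receptor lists held it. Among the marker lists it was in 2 of the 10 immediate early windows (Btg2 and Dusp1), 1 of 7 striatal (Gpr6), 1 of 4 neuronal (Syn1) and 1 of 7 endothelial (Flt1), and in none of the other marker lists searched, which did not include ribosomal protein and mitochondrial genes. Windows of 6 of these genes are shown, chosen because Sst leads the precursors, Cartpt and Gpr6 vary strongly between mice, and the others process or pack peptides. They run 5′ to 3′ along the gene, with the motif in capitals, at chr16:23890795-23891094 (Sst, minus strand), chr13:99900634-99900933 (Cartpt, minus strand), chr1:79439977-79440276 (Scg2, minus strand), chr2:132781392-132781691 (Chgb, plus strand), chr13:75089607-75089906 (Pcsk1, plus strand) and chr10:41072241-41072540 (Gpr6, minus strand).
Sst: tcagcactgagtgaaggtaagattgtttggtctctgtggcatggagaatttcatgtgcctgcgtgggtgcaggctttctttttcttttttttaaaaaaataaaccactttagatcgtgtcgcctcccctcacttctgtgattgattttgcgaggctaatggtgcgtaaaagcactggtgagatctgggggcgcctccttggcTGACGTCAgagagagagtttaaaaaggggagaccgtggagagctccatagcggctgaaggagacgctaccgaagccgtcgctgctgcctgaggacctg
Cartpt: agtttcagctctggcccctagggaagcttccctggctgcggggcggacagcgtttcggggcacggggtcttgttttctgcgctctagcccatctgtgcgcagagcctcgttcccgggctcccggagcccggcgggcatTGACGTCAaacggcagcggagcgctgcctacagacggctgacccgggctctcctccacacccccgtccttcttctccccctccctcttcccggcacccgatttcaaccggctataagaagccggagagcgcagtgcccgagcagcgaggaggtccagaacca
Scg2: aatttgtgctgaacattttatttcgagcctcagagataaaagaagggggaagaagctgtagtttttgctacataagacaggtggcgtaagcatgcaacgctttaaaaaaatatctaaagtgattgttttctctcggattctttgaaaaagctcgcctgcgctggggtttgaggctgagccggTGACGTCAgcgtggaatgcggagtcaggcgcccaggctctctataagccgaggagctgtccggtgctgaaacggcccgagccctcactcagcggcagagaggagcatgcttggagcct
Chgb: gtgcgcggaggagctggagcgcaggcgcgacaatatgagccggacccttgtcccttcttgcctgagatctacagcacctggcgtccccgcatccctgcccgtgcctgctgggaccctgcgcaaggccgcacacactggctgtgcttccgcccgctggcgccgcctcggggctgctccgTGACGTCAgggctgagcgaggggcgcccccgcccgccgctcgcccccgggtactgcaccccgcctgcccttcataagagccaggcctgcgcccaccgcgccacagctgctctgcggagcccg
Pcsk1: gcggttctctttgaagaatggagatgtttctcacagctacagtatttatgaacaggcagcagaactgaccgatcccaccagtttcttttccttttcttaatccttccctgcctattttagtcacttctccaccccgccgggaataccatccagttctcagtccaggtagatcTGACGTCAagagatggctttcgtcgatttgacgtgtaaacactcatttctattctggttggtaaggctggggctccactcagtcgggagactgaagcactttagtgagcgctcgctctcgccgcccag
Gpr6: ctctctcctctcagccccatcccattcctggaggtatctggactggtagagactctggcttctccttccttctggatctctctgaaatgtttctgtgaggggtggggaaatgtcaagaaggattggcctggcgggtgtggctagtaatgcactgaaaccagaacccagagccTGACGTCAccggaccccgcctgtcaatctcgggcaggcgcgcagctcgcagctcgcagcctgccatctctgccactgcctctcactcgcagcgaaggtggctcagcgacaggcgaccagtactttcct

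The motif begins 48 bases before the RefSeq start of Sst, 68 before that of Scg2, 72 before that of Chgb, 78 before those of Pcsk1 and Gpr6, and 112 before that of Cartpt. Genes with the motif did not share a level or a spread, since Sst had a mean level of 1102 and Cartpt of 16.4, with coefficients of variation of 6.64% and 30.6%. A second motif, TAATCC with its reverse complement, which factors of the OTX family bind, was searched because Otx2 is a choroid plexus marker. None of the 9 choroid plexus windows held it, against 6.85% of all windows.

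Neuropeptide receptors were about an order of magnitude below the leading precursors. Of 75, 20 had a mean level of at least 10 and 51 of at least 1. The filter left 53, a further 17 fell under it, and 5 are listed in the second batch only (Galr1, Mc4r, Mc5r, Prlhr and Glp1r).

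**Figure D2:**
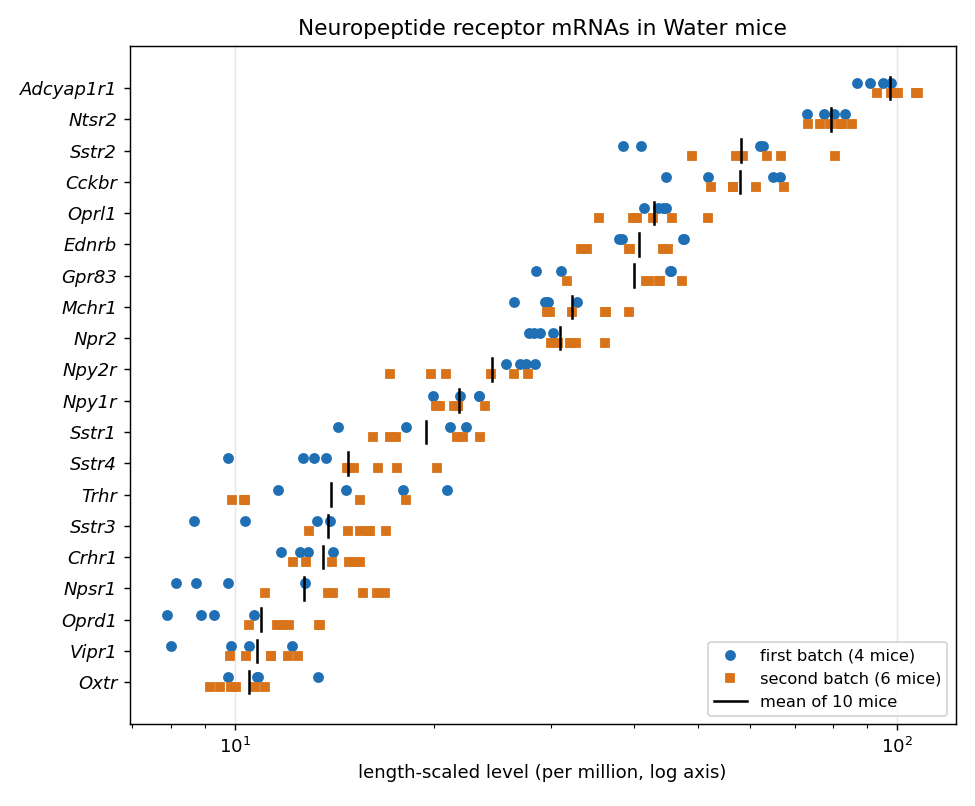
Length-scaled levels (log axis) of the 20 neuropeptide receptors with the highest mean that both tables list, with 1 point per mouse (circles, 4 mice of the first batch; squares, 6 mice of the second) and a bar at the mean of the 10 mice. Adcyap1r1 leads at 97.6 and the receptors from Sstr1 (19.4) down to Oxtr (10.5) lie close together.

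Adcyap1r1, the receptor of PACAP, led with levels of 95.2, 91.1, 86.8 and 97.8 in the first batch and between 93.3 and 107 (median 99.9) in the second. Ntsr2, a neurotensin receptor made largely by astrocytes, followed at 79.3 ± 4.21 (SD, n = 10) and was below Adcyap1r1 in 10 of 10 mice (mean log2 difference 0.30, SD 0.10, exact sign-flip permutation test, adjusted p = 0.0148). Next came Sstr2, a somatostatin receptor, at 58.0 ± 12.5, and Cckbr, the main cholecystokinin receptor of the brain, at 57.8 ± 7.26. The difference between these 2 did not pass the test (exact sign-flip permutation test, adjusted p = 0.957), and Sstr2 was the higher in 5 of 10 mice. Sstr2 was lower in mice 40 and 41 (38.6 and 41.1) than in mice 42 and 43 (62.8 and 62.1), the reverse of the split of Penk, and was between 48.96 and 80.5 (median 61.0) in the second batch.

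In all, 6 of the 19 neighbouring pairs of receptors differed in level. Besides Adcyap1r1 over Ntsr2 these were Ntsr2 over Sstr2 (mean log2 difference 0.48, SD 0.37, 9 of 10 mice), Cckbr over Oprl1, the nociceptin receptor (0.42, SD 0.21, 10 of 10), Gpr83 over the melanin-concentrating hormone receptor Mchr1 (0.30, SD 0.24, 9 of 10), Npr2, a natriuretic peptide receptor, over the neuropeptide Y receptor Npy2r (0.35, SD 0.28, 9 of 10), and Sstr1 over Sstr4 (0.39, SD 0.30, 9 of 10), all with an exact adjusted p of 0.0148 but for the last, at 0.0247. The receptors of the stress peptide, the opioids and oxytocin were lower, with Crhr1 at 13.6 ± 1.30, Oprd1 (delta opioid) at 10.96 ± 1.85, Oprk1 (kappa opioid) at 8.57 ± 2.15 and Oxtr at 10.5 ± 1.19 (SD, n = 10). Oprk1 was at 7.02, 11.3, 5.64 and 4.802 in mice 40 to 43 and between 7.98 and 10.3 in the second batch. Between the batches 6 of the 53 receptors tested were higher in the second and 1 was lower. Among all genes 9.05% were higher, a smaller share than of the receptors, and 8.29% lower, a larger one. Oprd1 was one of the 6, at 10.7, 9.31, 7.90 and 8.88 in the first batch and between 10.5 and 13.4 (median 11.9) in the second (log2 change 0.42, SE 0.09, adjusted p = 0.00536), and Npsr1, the receptor of neuropeptide S, was another (log2 change 0.60, SE 0.14, adjusted p = 0.0129).

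Receptors of GABA and glutamate were more abundant and more even than neuropeptide receptors, by the medians of their lists. Among GABA-A receptor subunits, 12 of 19 had a level of at least 10, with Gabra3 at 174 ± 15.4 (SD, n = 10). Gabrd, the delta subunit of extrasynaptic receptors, varied most of the abundant subunits, with 41.4, 31.9, 20.5 and 19.6 in mice 40 to 43 and between 18.8 and 36.4 in the second batch. Both GABA-B receptor genes were high, Gabbr1 at 318 ± 19.7 and Gabbr2 at 203 ± 19.6, and Gabbr1 was higher in the second batch (log2 change 0.19, SE 0.04, adjusted p = 0.00642).

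Of the ionotropic glutamate receptor subunits, 14 of 18 had a level of at least 10. Gria1, an AMPA receptor subunit, led at 384 ± 25.3, above Grin1, the shared NMDA receptor subunit (168 ± 15.8), Grik5 (157 ± 21.7) and Gria2 (138 ± 9.80; SD, n = 10). Of the 17 tested, 5 were higher in the second batch and 0 lower, where 9.05% of all genes were higher. Among them was Grik5, at 132, 129, 134 and 137 in the first batch and between 162 and 183 in the second (log2 change 0.41, SE 0.05, adjusted p = 7.12e-05). Grm5 led the metabotropic receptors at 88.9 ± 6.79. Among glycine receptor subunits Glrb was at 130 ± 5.50 and the alpha subunit Glra2 at 34.4 ± 2.42, and none of the 5 tested passed the threshold between the batches in edgeR, the lowest adjusted p being 0.0902 for Glra2.

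Among modulatory receptors the order was led by Hrh3, the histamine autoreceptor, at 132 ± 11.4, Cnr1, the cannabinoid receptor of neurons, at 113 ± 9.36, and Chrm1, a muscarinic receptor, at 106 ± 8.92 (SD, n = 10). Dopamine receptors stood lower and were among the least even. Drd2 was at 103, 83.1, 12.5 and 16.7 in mice 40 to 43 and between 27.9 and 76.9 (median 66.4) in the second batch, and Drd1 at 65.9, 53.0, 22.5 and 26.9 in the first batch and between 28.1 and 54.7 (median 48.2) in the second. Adora2a, the adenosine receptor found on Drd2 neurons, was high and low in the same mice, with 96.7, 66.1, 16.6 and 18.2 in the first batch and between 23.8 and 75.3 in the second. Of 24 monoamine receptors tested, 2 were higher in the second batch (Adra2c and Htr6), and of 15 acetylcholine receptor genes 1 was higher (Chrm2) and 1 lower (Chrna1), shares below the 9.05% of all genes that were higher and the 17.3% that differed either way. Among steroid hormone receptors, which had a median coefficient of variation of 15.2%, the more abundant were steady, with Nr3c1, the glucocorticoid receptor, at 40.4 ± 2.80 and Nr3c2, the mineralocorticoid receptor, at 27.1 ± 1.66, whereas Esr1, an estrogen receptor, was low at 2.23 ± 0.688 and ranged from 1.20 to 3.33.

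The variation between punches of a batch was next described for 21 marker lists, each scored as the mean log2 CPM of those members that passed the filter on counts. In both batches the 3 scores with the largest SD were those of choroid plexus, striatum and ependyma, the ciliated lining of the ventricles. Their SDs lay between 0.51 and 1.84, against medians over the 21 scores of 0.18 in the first batch and of 0.11 in the second. Counting error alone would give the choroid plexus score an SD of 0.02 and 0.08 in the respective batches.

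**Figure D3:**
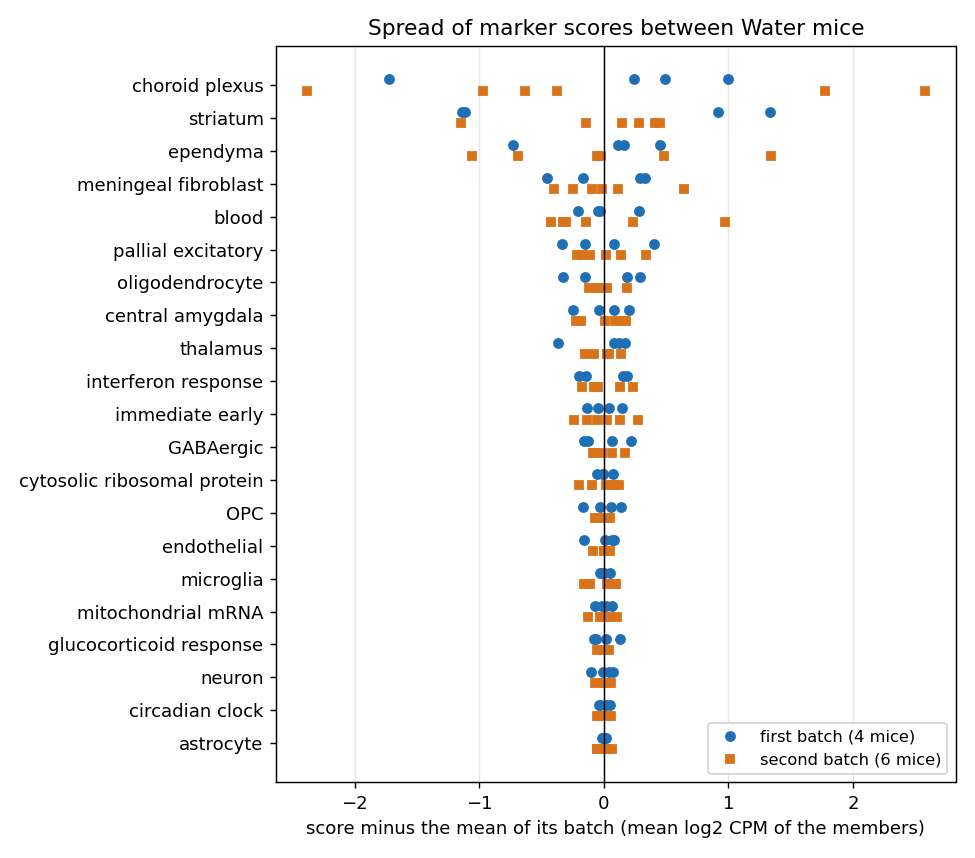
Scores of 21 marker lists in each mouse minus the mean of its batch (log2 scale; circles, 4 mice of the first batch; squares, 6 mice of the second), ordered by their summed SD. Choroid plexus, striatum and ependyma spread by more than 1 unit, whereas neuron, circadian clock and astrocyte scores stay close to 0.

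The 14 choroid plexus markers varied together over the mice, with a mean pairwise correlation of 0.97 within batches (all genes tested gave 0.001). Their score was 5.85, 3.64, 6.36 and 5.602 in mice 40 to 43, and 2.44, 1.84, 0.43, 4.59, 5.38 and 2.18 in mice 1 to 6 of the second batch, a range of 6.58-fold over the first 4 mice and of 31.1-fold over the other 6. Without mouse 41 the former was 1.69-fold, and the latter was 11.7-fold without mouse 3 and 17.9-fold without mouse 5. In mouse 3 some members were near 0 (Folr1 at 1 count), so the prior count of 2 used for the scores set part of the 31.1-fold range. Mouse 41 was low in the first batch, and mice 4 and 5 were high in the second. Without mouse 41 the SD of the first batch was 0.38 in place of 1.19. Ttr had 2432, 438, 3604 and 2104 CPM in mice 40 to 43, and 173, 95.2, 12.9, 976, 1845 and 131 CPM in mice 1 to 6. Folr1, a folate receptor of the epithelium, had 469, 63, 664 and 314 counts in the first batch and 35, 17, 1, 183, 380 and 21 in the second. Enpp2, which encodes autotaxin and is also made by oligodendrocytes, was lowest at 118 CPM, whereas Otx2, the transcription factor of the list, was between 0.258 and 26.9 CPM.

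The ependymal score followed the same mice, at 1.83, 0.93, 2.11 and 1.78 in the first batch and 0.17, -0.86, -0.50, 0.67, 1.54 and 0.14 in the second. Foxj1, which switches on motile cilia, was between 8.68 and 22.4 CPM in the first batch and between 3.58 and 12.9 CPM in the second. Without mouse 41 the SD of the ependymal score in the first batch was 0.18 in place of 0.51. Igf2, a growth factor of the meninges and choroid plexus in the list of meningeal fibroblasts, had 174, 43.2, 214 and 110 CPM in the first batch and between 18.3 and 95.3 CPM (highest in mouse 5) in the second. The hemoglobin genes in the blood list were highest in mouse 5 of the second batch, where Hba-a1 had 52.7 CPM against 20.0 to 28.1 CPM in the other 5 mice of that batch, and without mouse 5 the SD of the blood score was 0.26 in place of 0.53.

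**Figure D4:**
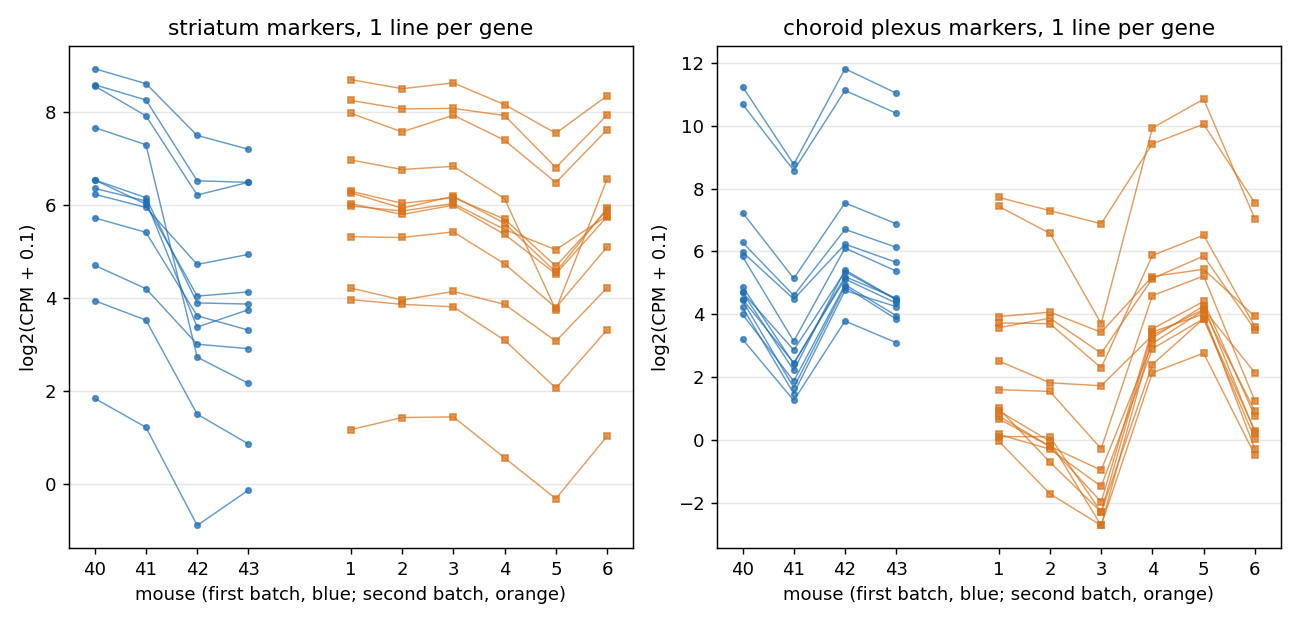
Striatal markers (left, 12 genes) and choroid plexus markers (right, 14 genes) as log2(CPM + 0.1) in each mouse, with 1 line per gene (blue circles, mice 40 to 43 of the first batch; orange squares, mice 1 to 6 of the second; lines only join the values of a gene). Striatal markers are high in mice 40 and 41 and low in mice 42, 43 and 5, whereas choroid plexus markers are low in mouse 41 and in mice 1, 2, 3 and 6.

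The 12 striatal markers, genes of the medium spiny neurons of the striatum lying beside the amygdala, had a mean pairwise correlation of 0.98 within batches. Their score was 6.31, 5.89, 3.86 and 3.84 in mice 40 to 43, so the first batch fell into a pair of high mice and a pair of low mice, and 5.93, 5.76, 5.89, 5.34, 4.34 and 5.63 in mice 1 to 6, where mouse 5 was low. Without mouse 5 the SD of the second batch was 0.24 in place of 0.60. Scn4b, a sodium channel beta subunit, varied most, with 203, 158, 6.56 and 4.41 CPM in mice 40 to 43 and between 13.4 and 126 CPM (median 102) in the second batch. Ppp1r1b, which encodes DARPP-32, a regulator of dopamine signalling, had 489, 392, 181 and 147 CPM in the first batch and between 187 and 416 CPM (median 345) in the second. In the low mice the markers were reduced but not absent, and part of this list (Drd1, Drd2 and Ppp1r1b among them) is also made by amygdala neurons. Penk and Tac1, which medium spiny neurons also make, were low in the same mice of the first batch, as given above; the part of striatal tissue in these peptide values was not tested.

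Markers of the amygdala's own neurons varied less. The pallial excitatory score, for cortex-like glutamatergic neurons, was 5.75, 5.57, 5.98 and 6.30 in mice 40 to 43 and between 5.76 and 6.31 (median 5.93) in the second batch. Within it Slc17a7 was between 996 and 1538 CPM. The central amygdala score was 4.52, 4.76, 4.63 and 4.31 in the first batch and between 4.30 and 4.70 (median 4.58) in the second. The GABAergic score lay between 5.20 and 5.604, and mice 42 and 43 were lowest, with Gad2 at 299 and 267 CPM there against 446 and 539 CPM in mice 40 and 41. Within the first batch the oligodendrocyte score was also lowest in these mice, at 6.25, 6.15, 5.81 and 5.63 in mice 40 to 43. It was between 6.17 and 6.47 in the second batch, where its member Mbp was far higher, as described below, so the scores of the batches are not directly comparable.

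Among the glial, vascular and state lists, the astrocyte score had an SD of 0.02 and 0.05 in the first and second batch, the neuron score 0.07 and 0.04, the circadian clock score 0.04 and 0.04 and the microglia score 0.04 and 0.11. Astrocyte members did not vary together (mean pairwise correlation 0.01), so that their mean was even although Gfap, the intermediate filament, ranged from 35.3 to 73.7 CPM. Immediate early genes, which neuronal activity induces, had an SD of 0.12 and 0.19, the latter above that of the central amygdala score (0.17), with Egr1 between 178 and 274 CPM, Arc between 78.4 and 128 CPM and Fos between 19.3 and 27.2 CPM over the 10 mice. Glucocorticoid response genes had an SD of 0.10 and 0.03, with Fkbp5 between 27.1 and 35.1 CPM, and interferon response genes had an SD of 0.20 and 0.15 at low levels, with Ifit1 at most 1.29 CPM.

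Whether scores went together was asked over 45 pairs of 10 scores, of neuronal classes, glia, choroid plexus, immediate early and ribosomal protein genes, with batch means removed and an exact permutation of the mice within batches. None of the 45 passed the threshold in this exact permutation test after adjustment (lowest adjusted p = 0.0807), and 9 had an unadjusted p under 0.05. The pallial excitatory and central amygdala scores were opposed, with r = -0.87 over the 10 mice (exact permutation p = 0.00492) and Spearman's rho = -0.88 (exact permutation p = 0.00556), and within the 6 mice of the second batch r was -0.91 (exact permutation p = 0.0153). Without mouse 43 of the first batch and mouse 3 of the second, the mice farthest from the median of the pallial score, r was -0.67 (exact permutation p = 0.1). Without mouse 4 of the second batch, 1 pair passed (pallial excitatory with immediate early, r = 0.95, exact permutation, adjusted p = 0.0156), and without mouse 41 of the first, 1 pair (pallial excitatory with thalamus, r = -0.87, adjusted p = 0.0417, exact permutation).

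**Figure D5:**
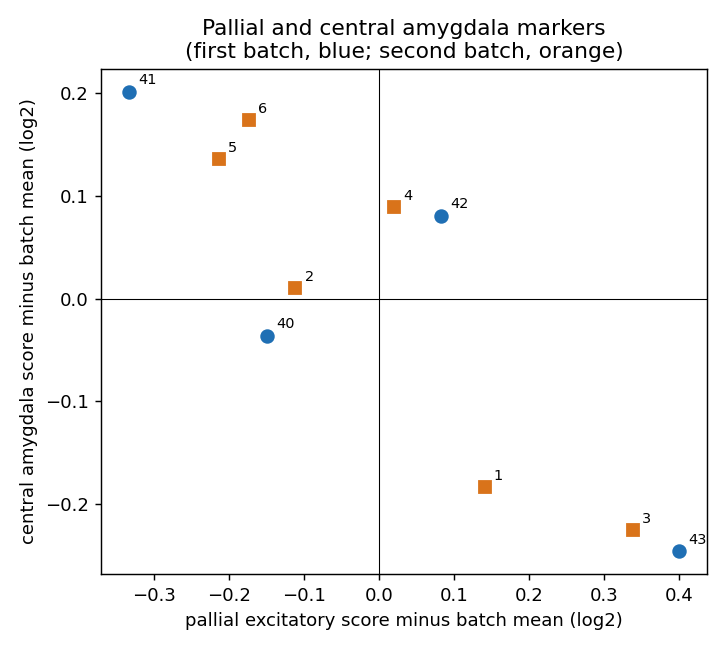
Central amygdala score against pallial excitatory score in each Water mouse, both minus the mean of their batch (log2 scale; blue circles, first batch; orange squares, second batch; labels give the mouse). Mice 43 and 3 lie at the high pallial and low central end, and mouse 41 at the other.

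The thalamus and immediate early scores had unadjusted p under 0.05 with the same 2 scores, although no pair passed after adjustment. The thalamus score had an SD of 0.25 in the first batch and of 0.10 in the second. Counting error alone would give it an SD of 0.08 in either batch, so its spread in the second batch was little above that error. Thalamus was opposed to pallial excitatory (r = -0.83, exact permutation p = 0.00579, rho = -0.73, exact p = 0.0383, r = -0.94 in the second batch, exact p = 0.00556) and went with central amygdala (r = 0.77, exact permutation p = 0.0126, rho = 0.56, exact p = 0.151, r = 0.89 in the second batch, exact p = 0.025), both at an adjusted p of 0.0807. Without mouse 43 of the first batch and mouse 3 of the second these were r = -0.48 and r = 0.46 (exact permutation p = 0.217 and 0.325). The immediate early score was opposed to the central amygdala score (r = -0.83, exact permutation p = 0.00503, rho = -0.83, exact p = 0.00602, r = -0.87 in the second batch, exact p = 0.0278) and rose with the pallial score (r = 0.77, exact permutation p = 0.00793, rho = 0.80, exact p = 0.00891, r = 0.73 in the second batch, exact p = 0.0944), with an adjusted p of 0.0807 for both. Leaving out mouse 43 of the first batch and mouse 3 of the second gave r = -0.70 and r = 0.54 (exact permutation p = 0.0931 and 0.168). Thalamus and immediate early scores were opposed (r = -0.65, exact permutation p = 0.0125, rho = -0.65, exact p = 0.0449, adjusted p = 0.0807), with r = -0.84 in the second batch (exact p = 0.0472) and r = -0.72 without mice 43 and 5 (exact p = 0.111). The pallial score was also opposed to the GABAergic score (r = -0.84, exact permutation p = 0.0108, rho = -0.89, exact p = 0.00324, adjusted p = 0.0807), with r = -0.69 in the second batch (exact p = 0.117) and r = -0.84 without mice 43 and 3 (exact p = 0.0375). The GABAergic and oligodendrocyte scores went together (r = 0.84, exact permutation p = 0.0232, rho = 0.86, exact p = 0.0536, adjusted p = 0.131), with r = 0.88 in the second batch (exact p = 0.0278) and r = 0.85 without mouse 41 of the first batch and mouse 6 of the second (exact p = 0.0278). For the striatal score no pooled correlation is given, because the first batch splits into separate pairs. Its pair with the choroid plexus score is one of the 9 (exact permutation over all mice, p = 0.0357, adjusted p = 0.179), and within the second batch the 2 were opposed (r = -0.85, n = 6, exact permutation p = 0.0139, not adjusted), with mouse 5 the lowest in the one and the highest in the other.

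Single genes with the largest spread, 15 in each batch among those whose mean count over the mice of both batches was 100 or more, were of 3 kinds. Some were genes of the lists above, Scn4b and Drd2 in the first batch and Ttr and Folr1 in the second. Others, held by no list, varied with the same mice. Mfrp, a frizzled-related membrane protein, had 1039, 202, 1577 and 939 counts in mice 40 to 43 and 72, 38, 1, 408, 629 and 38 in mice 1 to 6, high in the mice with high choroid plexus markers. Cd4, better known from T cells, had 350, 357, 35 and 14 counts in the first batch and was lowest in mouse 5 (37 counts, against 174 to 286 in the other 5) in the second, so that it was low in the mice with low striatal markers. Nexn, an actin-binding protein, was low in the same mice, with 369, 283, 38 and 31 counts in mice 40 to 43 and 43 in mouse 5. Ccn2, a matricellular protein and a marker of deep cortical and claustral neurons, had another order, with 672, 119, 48 and 997 counts in the first batch and 828, 377, 1249, 312, 76 and 401 in the second. Slc5a7, the choline transporter of cholinergic neurons, had 320, 237, 47 and 42 counts in mice 40 to 43 and was highest in mouse 6 of the second batch, at 332 against 81 to 169.

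The remaining kind held genes absent, or nearly so, from some mice of a batch. A mouse had a count of 0 for 7 of the 15 genes in the first batch and for 10 of the 15 in the second, and 2 and 7 of the 15 were pseudogenes. Of the genes in the first batch, Sfxn3, Gm28437, Gm9762 and Gm17018 had far lower counts there and passed the filter through the second batch. Gm10163, among those of the second, passed it through the first. The zeros and large SDs of such genes follow in part from the filter. Srp54b had 3 counts in mouse 43 and between 755 and 1000 in the other 9 mice. Fam205a3 had 0 counts in mice 40, 42, 1 and 2 and between 112 and 343 in the other 6. The symbol Fam220a is carried by 2 identifiers, one with 650 to 750 counts in mice 1 to 4 and 17 and 22 in mice 5 and 6, the other with 12 to 26 in mice 1 to 4 and 735 and 660 in mice 5 and 6. Sfxn3, a mitochondrial carrier on chromosome 19, had 53, 0, 30 and 103 counts in mice 40 to 43 and between 1699 and 2057 in the second batch. The single values of Srp54b, Fam205a3 and Fam220a are uncertain. Fam220a is a symbol shared by identifiers with opposed counts, and whether reads of Srp54b or Fam205a3 also match other genes was not tested.

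A second ranking, chosen after values were seen, took only the 11108 protein-coding genes whose mean count was 100 or more in each batch. It leaves out 7 of the 15 genes above in the first batch and 9 of the 15 in the second, among them those nearly absent from one batch, so it does not speak for them. Of its 50 genes with the largest SD in the first batch, 46 were within the top 10% of SDs in the second, and of the 50 of the second, 48 were within the top 10% in the first. Striatal markers made up 10 of the first 50 and 4 of the second, and choroid plexus markers 8 and 9. The median SD of all 11108 genes was 0.10 in each batch, and an SD over 1 was reached by 35 genes in the first batch against 19 in the second.

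The last comparison was between the batches themselves, which here hold mice of the same treatment but differ in cohort and in the table of genes, so that these cannot be told apart. The study's methods describe a transcript index for the counting and name no separate ones for the batches. Whether the batches were also sequenced apart is not given in the sources used here. Of 16274 genes tested, 1473 were higher and 1349 lower in the second batch (edgeR's quasi-likelihood test, adjusted p under 0.05), and upper quartile scaling gave 1191 higher and 1713 lower. Without mouse 43 the calls were 1869 in place of 2822. The largest changes were not graded. Abcg1, a cholesterol exporter, had 0 counts in all 4 mice of the first batch and between 1544 and 1772 in the second, and Dcc, a netrin receptor, had 0 or 1 counts in the first and between 662 and 956 in the second. Altogether 15 genes had under 10 counts in every mouse of the first batch and at least 100 in every mouse of the second, of which 13 lie on chromosomes 17, 18 or 19. The part of the counting in changes of genes on these chromosomes, Sfxn3 and Mbp included, was not tested. The reverse held for 2 genes. Among the genes with the largest fall, Rps27, a ribosomal protein gene, had between 1413 and 1721 counts in the first batch and between 30 and 86 in the second, and CT010467.1, an rRNA gene that the library protocol depletes, had between 13670 and 17860 and between 9 and 19.

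Among the marker lists, no score differed between the batches at an adjusted p under 0.05 (exact permutation test over 210 regroupings), although 10 had an unadjusted p under 0.05 and 6 had an adjusted p of exactly 0.05 (thalamus, mitochondrial mRNA, glucocorticoid response, oligodendrocyte, circadian clock and cytosolic ribosomal protein). Without mouse 5 of the second batch, 4 scores passed (thalamus, mitochondrial mRNA, circadian clock and ependyma). The oligodendrocyte score was higher in the second batch by a mean of 0.33 on the log2 scale. Of its 14 members, which have equal weight in the score, 1 passed the test of single genes. The difference of the score without that member, Mbp, was not computed. Mbp, the myelin basic protein gene on chromosome 18, had 75.7, 72.4, 83.6 and 74.5 CPM in the first batch and between 1101 and 1459 CPM (median 1217) in the second (log2 change 4.02, adjusted p = 2.85e-12), whereas the other 13 did not pass. The choroid plexus score was lower in the second batch by a mean of 2.55 on the log2 scale (exact permutation p = 0.0476, adjusted p = 0.1), and 1 of its 14 members passed the test of single genes (Sostdc1, log2 change -1.70, adjusted p = 0.0328). Of the 79 cytosolic ribosomal protein genes, 35 were higher and 7 lower in the second batch, against 9.05% and 8.29% of all genes. Within the mitochondrial list of 13, 2 members were higher and 5 lower, against the same shares of all genes, and the 5 included mt-Co2, mt-Co3 and mt-Nd3, whose counts lie in part on the nuclear copies described above.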

How the data were processed

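Whole amygdala RNA of 10 Water mice, 4 of the first and 6 of the second batch, was sequenced on a BGISEQ-500 instrument. The authors deposited counts per gene and mouse, one table per batch, before any batch correction. The submitters' processing notes name FastQC 0.11.8 and Salmon 0.14.1 with GRCm38/mm10, and the study's methods state tximport for the sums per gene. Gene lengths here are those of all exons in GENCODE M21, and Salmon's effective lengths were not used here, so levels of genes with few used exons are understated.

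Gene counts of both tables were compared between batches with edgeR 4.0.16 (quasi-likelihood, TMM scaling, Benjamini-Hochberg adjustment, threshold 0.05) in R 4.3.3, for 16274 genes with a mean count of at least 10. DESeq2 1.42.0 and limma 3.58.1 served as alternatives. Neighbouring levels were compared by exact sign-flip tests on log2(level + 0.1) over 1024 sign patterns, batch differences of scores by exact permutation, and pairs of scores by exact permutation within batches (17280 orders), all two-sided, in Python 3.11.15. CPM used a prior count of 2 in log2 values. On simulated data 93% of 1.5-fold and 95% of 2-fold changes of this comparison were recovered, with 5 false calls over 16274 genes. The shares recovered hold only for the genes that were given a change. They were not split by count, so recovery among genes with few counts was not tested separately. No pair of mice of the same batch agreed within sampling noise (chi-square per degree of freedom from 4.11 to 20.4), and p-values measure the spread between mice. All columns of the tables were mapped (0 unmapped).

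Genes named are members of the marker lists, the 20 highest levels, the 15 most variable genes of each batch and the 10 largest changes in each direction between batches, with exceptions stated. The members and lists were chosen with earlier results of these data known. Drinking groups were not analysed here. Some items are not reported here.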

Additional observations from a re-analysis of the deposited data

Results flagged for a closer look

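In 122 groups of 4 to 6 mice, 4 had a mouse that stood far from the others, and chance alone flags about 1 in 20 groups. The thalamus score of mouse 43 of the first batch was 2.01, with the nearest other mouse at 2.46, and without it the SD of that score in the batch was 0.04. Mouse 5 of the second batch accounted for the other 3. Its striatal score was 4.34 (nearest 5.34), its endothelial score was 4.12 (nearest 4.21) and its level of Gpr83, a peptide receptor, was 31.7 (nearest 41.7). The same mouse had the highest choroid plexus and blood scores of its batch, and the part of either in these values was not tested.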

How the results depend on the processing

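Of 1227 alternative values for 100 results, 1 turned the direction. With the first principal component in place of the mean as score, the batch difference of the circadian clock score was -0.0137 in place of 0.10. That scoring also gave SDs of 0.11 and 0.10 for the astrocyte score in the first and second batch and of 0.12 for the glucocorticoid response score in the second, and 1 pair of scores passed the test (pallial excitatory with central amygdala, r = -0.93, exact permutation, adjusted p = 0.0495). Leaving out 1 mouse at a time gave 1869 to 3015 genes differing between the batches, with 1053 to 1493 higher and 816 to 1522 lower. It gave 0 to 4 scores differing between batches, 0 to 1 pairs of scores, 3 to 7 neighbouring precursors and 6 to 7 neighbouring receptors. In the second batch alone, 0 precursor pairs and 0 receptor pairs passed, since with 6 mice the lowest adjusted p was 0.0990. By counts per longest annotated transcript, Penk over Cck was 0.36 (exact adjusted p = 0.304). DESeq2 gave an adjusted p of 0.283 for Gm10163 and called 3153 genes between the batches. The causes were not tested. No paired analysis was possible because the Water mice of the first batch carry the numbers 40 to 43 and those of the second 1 to 6, so the batches share no replicate number. The comparison of 4 with 6 mice limits score tests to an exact p of at least 0.00476, and levels near 0 counts are not distinguishable at this depth.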
